A study of Mus musculus with 12 samples.

Results

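The contractile proteins of slow (type I) muscle fibres were followed at the transcript level in the gastrocnemius, a calf muscle, of mice that lack ankyrin-B in skeletal muscle. The set was taken by gene symbol: Myh7, Myh7b, Tnnt1, Tnni1, Tnnc1, Myl2, Myl3, Myl6b, Tpm3 and Myoz2, which are 10 of the 24528 gene symbols in the deposited table. Of these symbols 12218 passed a filter on low values, and they included all 10 slow-fibre genes. Bulk poly-A RNA was sequenced from 6 KO mice (Ank2f/f; HSA-Cre+) and 6 WT mice (Ank2f/f, no Cre), all male, 4 months old, and littermates housed together. The groups therefore share the floxed Ank2 alleles and differ by the Cre transgene, whose skeletal actin promoter is active in muscle fibres. No group of mice with Cre and unfloxed alleles was analysed here. Libraries are named by genotype and replicate number, and each is a separate mouse.

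A sarcomere shortens when myosin heads on the thick filament pull on actin in the thin filament. Each myosin head has a heavy chain, which sets the speed of contraction, and an essential and a regulatory light chain. On the thin filament, calcium binding to troponin C moves troponin I, troponin T and tropomyosin, and this exposes the binding sites for myosin. Most of these proteins come in a slow and a fast form made from separate genes, and type I fibres use the slow set, much of which is also used in heart muscle. The mouse gastrocnemius is a mostly fast muscle with slow fibres concentrated in its deep part.

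The values in the table are log2 values whose transformation is not named. All libraries share the lowest value, 5.567688, and differences between low values are compressed, so for a gene with few reads the true ratio is larger than the printed difference implies. Reads per gene were estimated by undoing the transformation, and they gave library totals of 13408672 to 18705904 reads in KO and 12284019 to 16907085 in WT (exact two-sided permutation p = 0.079). Ank2, which spans chr3:126921612-127499350 on the minus strand, had deposited log2 values between 7.54 and 8.03 in KO (median 7.68) and between 8.40 and 9.22 in WT (median 8.98). No KO library reached a WT library, and the change was -1.15 (SE 0.14, limma adjusted p = 0.00088). Over all tested genes limma called 757, which is 6.2%, with 381 higher and 376 lower in KO. The median change over all tested genes was -0.01.

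The sequence before the transcription start is shown for 4 of the genes, because these 4 stand for the patterns of covariation described further on. Myh7 and Tnnc1 stand for the genes that followed the slow myosin heavy chain. Myl3 and Myoz2 stand for those that, in KO, followed the type IIA heavy chain, though not that chain alone. Each run is 5′ to 3′ on the strand of the gene and ends at the base before the start given by RefSeq on build GRCm38.p6. Capitals mark matches, on either strand, to the E-box (CANNTG, bound by the myogenic MyoD family), the MCAT element (CATTCC, bound by the TEAD family), the MEF2 site and the CArG box (bound by serum response factor). The windows are chr14:54994627-54994876 on the minus strand for Myh7, chr14:31208062-31208311 on the plus strand for Tnnc1, chr9:110763428-110763677 on the plus strand for Myl3 and chr3:123034988-123035237 on the minus strand for Myoz2.
Myh7: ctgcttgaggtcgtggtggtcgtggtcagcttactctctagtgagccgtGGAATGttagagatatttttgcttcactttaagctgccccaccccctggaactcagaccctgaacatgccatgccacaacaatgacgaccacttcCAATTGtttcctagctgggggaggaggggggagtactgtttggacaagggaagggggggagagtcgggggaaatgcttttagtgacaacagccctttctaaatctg
Tnnc1: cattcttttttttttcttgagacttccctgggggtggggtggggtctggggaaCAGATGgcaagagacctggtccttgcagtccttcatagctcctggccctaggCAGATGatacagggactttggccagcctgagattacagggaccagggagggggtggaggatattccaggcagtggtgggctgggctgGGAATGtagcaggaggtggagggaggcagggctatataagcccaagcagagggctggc
Myl3: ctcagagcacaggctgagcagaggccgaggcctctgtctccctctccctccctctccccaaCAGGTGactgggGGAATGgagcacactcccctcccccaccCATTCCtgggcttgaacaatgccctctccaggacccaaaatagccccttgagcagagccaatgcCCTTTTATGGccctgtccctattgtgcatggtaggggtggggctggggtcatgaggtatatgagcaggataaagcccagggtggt
Myoz2: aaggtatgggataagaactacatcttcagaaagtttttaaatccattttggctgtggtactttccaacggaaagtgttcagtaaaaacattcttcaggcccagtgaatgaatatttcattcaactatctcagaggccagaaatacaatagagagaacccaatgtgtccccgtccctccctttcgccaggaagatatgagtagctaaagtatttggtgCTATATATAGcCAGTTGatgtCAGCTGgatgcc
All 10 genes had a RefSeq promoter entry, and 9 of these lay within 100 bases of a start in the GENCODE annotation. The window for Myl2 did not and was left out. An E-box stood in all 9 of these windows, against 66.2% of the 32851 windows in the table. The MCAT element stood in 3 of the 9 (Myh7, Tnnc1 and Myl3), against 12.6% of all windows. The MEF2 site was found in the Myoz2 window (2.92% of all windows) and the CArG box in the Myl3 window (1.47%). The further motif searched, TATAAA, stood in the Tnnt1 window and in 12.4% of all windows. These matches describe the letters in the windows and are not evidence of binding.

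Slow-fibre transcripts were at lower average levels in KO than in WT muscle, but the mice of each genotype differed so widely that no single gene passed the test. The limma estimate lay below 0 for 9 of the 10 genes, as it did for 52.4% of all tested genes, and the median change of the 10 was -1.83. None of the 10 was called at an adjusted p of 0.05, against 6.2% of all tested genes. Before adjustment 7 of the 10 had p at or under 0.05, against 26% of all tested genes, and this count ran from 3 (without KO 6) to 9 (without WT 2 or without KO 4) when single libraries were left out. It was 4 without WT 1, without WT 3, without WT 6 or without KO 5. The KO and WT values overlapped for all 10 genes, while 2.47% of all tested genes had groups that did not overlap and 1.2% had every KO library below every WT library. In bulk tissue, fewer slow fibres and less slow-fibre RNA per fibre cannot be told apart.

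**Figure D1:**
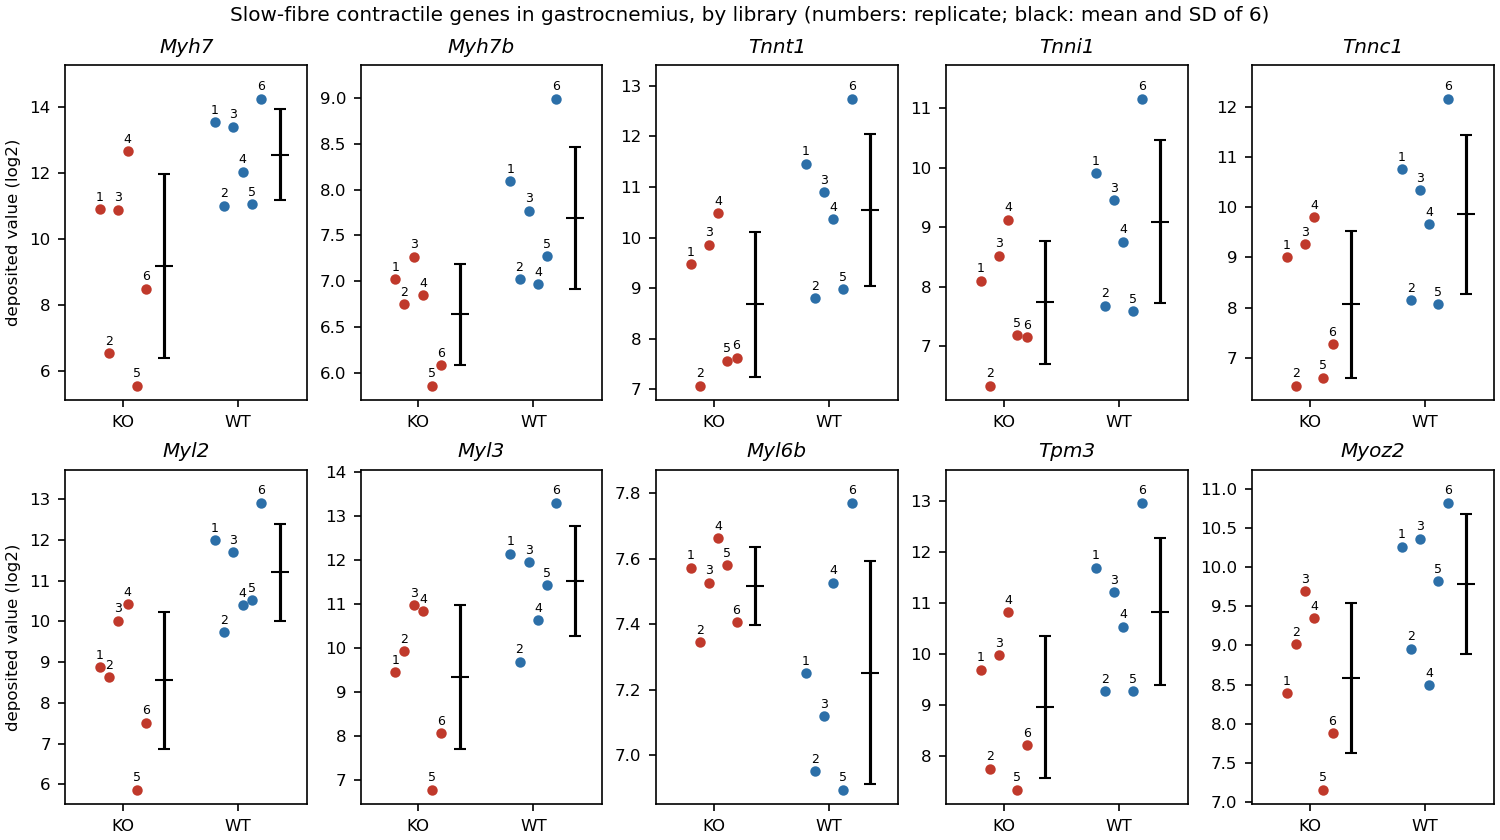
Deposited log2 values (y axis) of the 10 slow-fibre contractile genes in 6 KO and 6 WT libraries; each point is a mouse, labelled with its replicate number, and the black bar gives the mean and SD of 6. WT 6 is the highest WT library in every panel, KO 2 and KO 5 hold the lowest KO value in every panel, and Myl6b is the panel in which the KO mean is above the WT mean.

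Of the 10 genes, Myh7 had the estimate farthest from 0. Myh7 (chr14:54970684-54994626, minus strand) encodes the slow heavy chain, MyHC-I or beta-myosin. Its deposited log2 value was 5.57 at the lowest, 9.70 at the median and 12.67 at the highest in KO, against 11.02, 12.73 and 14.27 in WT. In estimated reads the KO libraries held 2200 (KO 1), 20.1 (KO 2), 1971 (KO 3), 8052 (KO 4), 0 (KO 5) and 309 (KO 6), and the WT libraries 10474 (WT 1), 1954 (WT 2), 8945 (WT 3), 4195 (WT 4), 1810 (WT 5) and 19549 (WT 6). On the deposited scale, on which 1 read is worth a different amount in each library, KO 4 reached into the WT range and the other 5 KO libraries lay below every WT library, KO 1 and KO 3 only narrowly (10.92 and 10.90 against 11.02 in WT 2). KO 5 stood at the lowest value of the table. The change was -3.37 (SE 1.25, limma adjusted p = 0.128, unadjusted p = 0.0221; exact permutation p = 0.0238). On the scale of reads the KO libraries averaged 20.6% of the WT mean (SD 29.2, n = 6) and ran from 0% to 76.5%, while the WT libraries ran from 23.5% to 233% of their own mean. Among the 12218 tested genes, Myh7 had the 2nd largest spread within groups.

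Of the Myh7 exon bases, 1149 (13.3%) are shared with other annotated genes, among them the antisense transcript Mhrt. The library kit does not mark strand, so reads from Myh7 and from its antisense partner cannot be told apart over those bases. Myh6, the fast cardiac heavy chain, is a near-identical neighbour of Myh7, and the sources used here do not say how the authors' counting split shared reads. Myh6 had deposited values of 6.13 ± 0.38 in KO and 6.81 ± 0.40 in WT (SD, n = 6 each), and its change was -0.69 (SE 0.20, limma adjusted p = 0.0597).

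Myh7b (chr2:155611212-155634307, plus strand) encodes a further slow-type heavy chain and hosts the microRNA Mir499 in an intron. It was the lowest of the 10 per exon length in both genotypes. Its deposited log2 value ran from 5.86 to 7.27 in KO (median 6.80) and from 6.97 to 8.99 in WT (median 7.52). KO 5 and KO 6 held 2 and 7 estimated reads, and 4 of 6 KO libraries lay below every WT library. The change was -1.05 (SE 0.38, limma adjusted p = 0.116; exact permutation p = 0.0195), and KO libraries averaged 22.8% of the WT mean (SD 18.0, n = 6). In this low gene the deposited scale compresses differences strongly, and the change was -2.34 when the same test was run on log2 of scaled reads plus 1.

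The slow myosin light chains were Myl2, the regulatory chain, and Myl3, the essential chain, and both are shared with the cardiac ventricle. Myl2 (chr5:122100951-122113472, plus strand) had deposited log2 values of 5.86 at the lowest, 8.75 at the median and 10.43 at the highest in KO, against 9.74, 11.11 and 12.92 in WT. KO 5 held 2 estimated reads and WT 6 held 7618. Of the KO libraries 4 lay below every WT library, while KO 3 and KO 4 reached into the WT range. The change was -2.66 (SE 0.83, limma adjusted p = 0.0835; exact permutation p = 0.013), with KO at 16.5% of the WT mean (SD 16.6, n = 6). This was the smallest adjusted p of the 10 genes. Myl2 was also the gene of the set that was called in an alternative fit, without robust moderation of the variance (adjusted p = 0.0346, with 5.79% of tested genes called in that fit), and its adjusted p reached 0.172 in other alternatives.

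Myl3 (chr9:110741861-110769798, plus strand) had deposited log2 values from 6.78 to 10.97 in KO (median 9.68) and from 9.69 to 13.29 in WT (median 11.69). KO 5 was lowest and KO 3 highest among KO, and WT 2 was lowest and WT 6 highest among WT. The change was -2.19 (SE 0.83, limma adjusted p = 0.136; exact permutation p = 0.026), with KO at 23.1% of the WT mean (SD 20.3, n = 6). Exon bases shared with another gene were 3.08% for Myl2 (Ccdc63) and 4.65% for Myl3 (Pth1r).

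Myl6b, which encodes a further essential light chain known from slow muscle and from nonmuscle cells, had an estimate above 0. On chr10:128494157-128498685 (minus strand), its deposited log2 value ran from 7.34 to 7.66 in KO (median 7.55) and from 6.89 to 7.77 in WT (median 7.19). The KO libraries lay inside the WT range, since WT 6 was the highest library of all. The change was 0.26 (SE 0.13, limma adjusted p = 0.2; exact permutation p = 0.108), and KO libraries averaged 132% of the WT mean (SD 18.2, n = 6). No KO library lay below the WT median, whereas for the other 9 genes 5 or 6 of the 6 KO libraries did. Its spread within groups ranked 1159 of 12218, far behind the other 9, which ranked between 2 and 59.

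The slow troponin subunits had estimates close to each other. Tnnc1 (chr14:31208312-31211729, plus strand) encodes slow and cardiac troponin C, the calcium sensor. Its deposited log2 value ran from 6.45 to 9.79 in KO (median 8.13) and from 8.07 to 12.16 in WT (median 10.00). Tnnt1 (chr7:4504570-4516382, minus strand) encodes slow troponin T, which anchors the complex to tropomyosin, and ran from 7.07 to 10.48 in KO (median 8.55) and from 8.80 to 12.75 in WT (median 10.63). In both genes KO 2, KO 5 and KO 6 were below every WT library, and KO 1, KO 3 and KO 4 stood within the WT range. The change was -1.79 for Tnnc1 (SE 0.87, limma adjusted p = 0.222; exact permutation p = 0.0714). For Tnnt1 it was -1.86 (SE 0.84, limma adjusted p = 0.192; exact permutation p = 0.0563).

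Tnni1 (chr1:135779434-135810989, plus strand) encodes slow troponin I, the inhibitory subunit. Its deposited log2 value ran from 6.34 to 9.13 in KO (median 7.64) and from 7.59 to 11.16 in WT (median 9.11). The same 3 KO libraries lay below every WT library. The change was -1.36 (SE 0.69, limma adjusted p = 0.245; exact permutation p = 0.0823). On the scale of reads, KO averaged 22.1% of the WT mean for Tnnc1 (SD 22.9), 23.0% for Tnnt1 (SD 23.2) and 25.3% for Tnni1 (SD 24.2, n = 6 each).

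Tpm3 (chr3:90072649-90100902, plus strand) encodes slow skeletal alpha-tropomyosin, and the same gene also yields cytoplasmic tropomyosins that these gene totals do not separate. Its deposited log2 value ran from 7.34 to 10.83 in KO (median 8.95) and from 9.28 to 12.97 in WT (median 10.88). The change was -1.87 (SE 0.81, limma adjusted p = 0.18; exact permutation p = 0.0519), with KO at 23.8% of the WT mean (SD 23.9, n = 6). Here too KO 2, KO 5 and KO 6 were below every WT library.

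Myoz2 (chr3:123006206-123035015, minus strand) encodes calsarcin-1, a Z-disc protein of slow fibres and heart that binds calcineurin. Its deposited log2 value ran from 7.16 to 9.69 in KO (median 8.70) and from 8.49 to 10.82 in WT (median 10.04). KO 1, KO 5 and KO 6 lay below every WT library, and KO 2, which was among the lowest for the troponins, did not. The change was -1.21 (SE 0.53, limma adjusted p = 0.181; exact permutation p = 0.0498), with KO at 39.3% of the WT mean (SD 27.7, n = 6).

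The same libraries were high or low for most of the set. WT 6 was the highest WT library for all 10 genes. KO 4 was the highest KO library for 7, and KO 3 for Myh7b, Myl3 and Myoz2. The lowest KO value was in KO 5 for 6 genes and in KO 2 for Tnnt1, Tnni1, Tnnc1 and Myl6b. Among WT, the lowest value was in WT 2 for 4 genes (Myh7, Tnnt1, Myl2 and Myl3), in WT 5 for 4 (Tnni1, Tnnc1, Myl6b and Tpm3) and in WT 4 for Myh7b and Myoz2. Even within WT the highest library exceeded the lowest by 24.6-fold for Tnnc1, 20.1-fold for Tnni1, 19.0-fold for Tnnt1 and 9.92-fold for Myh7 in scaled reads. For Myh4, the fast type IIB heavy chain, the WT libraries spanned 1.38-fold. The sources used here do not say which piece of the gastrocnemius was taken from each mouse.

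Within KO mice the slow troponins and Tpm3 moved together with Myh7 across libraries. Pearson's r against Myh7 over the 6 KO libraries was 0.986 for Tpm3 (exact permutation over 720 pairings, adjusted p = 0.0133), 0.974 for Tnnc1 (adjusted p = 0.0222), 0.940 for Tnnt1 and 0.904 for Tnni1 (adjusted p = 0.0485 each), so 4 of 9 genes passed. The adjustment covered all 24 relations computed, over both genotypes. The share of all tested genes that would pass against Myh7 was not computed, so this count has no background beside it. Spearman's rho for these was 0.943, 0.886, 0.886 and 0.771, with exact permutation adjusted p between 0.0571 and 0.176. The other genes did not pass the exact permutation test: r was 0.852 for Myl2 (adjusted p = 0.0556), 0.738 for Myl3, 0.704 for Myh7b, 0.657 for Myoz2 and 0.561 for Myl6b (adjusted p up to 0.287). Without KO 2 and KO 5, r over the other 4 KO libraries was 0.971 to 0.992 for the 4 genes that passed.

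Within WT mice the myosin genes Myl2, Myl3 and Myh7b passed as well. Pearson's r against Myh7 over the 6 WT libraries was 0.977 for Tpm3, 0.976 for Tnnc1, 0.976 for Tnni1 and 0.972 for Tnnt1 (exact permutation, adjusted p = 0.0133 each). It was 0.954 for Myl2 (exact permutation, adjusted p = 0.0429), 0.882 for Myh7b and 0.859 for Myl3 (adjusted p = 0.0485 each). Myoz2 (r = 0.750) and Myl6b (r = 0.694) did not pass the exact permutation test (adjusted p = 0.176 and 0.2). In WT 7 of 9 genes thus passed, and for this count too the share of all tested genes was not computed. Spearman's rho for those 7 was 0.83 to 1, but no rank correlation passed after adjustment (smallest adjusted p = 0.0571 by exact permutation). Without WT 2 and WT 5, the libraries farthest from the Myh7 median, r stayed at 0.90 or above for the 7 genes, was 0.980 for Myoz2 and dropped to 0.159 for Myl6b. Whether any of these correlations differs between KO and WT was not tested.

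**Figure D2:**
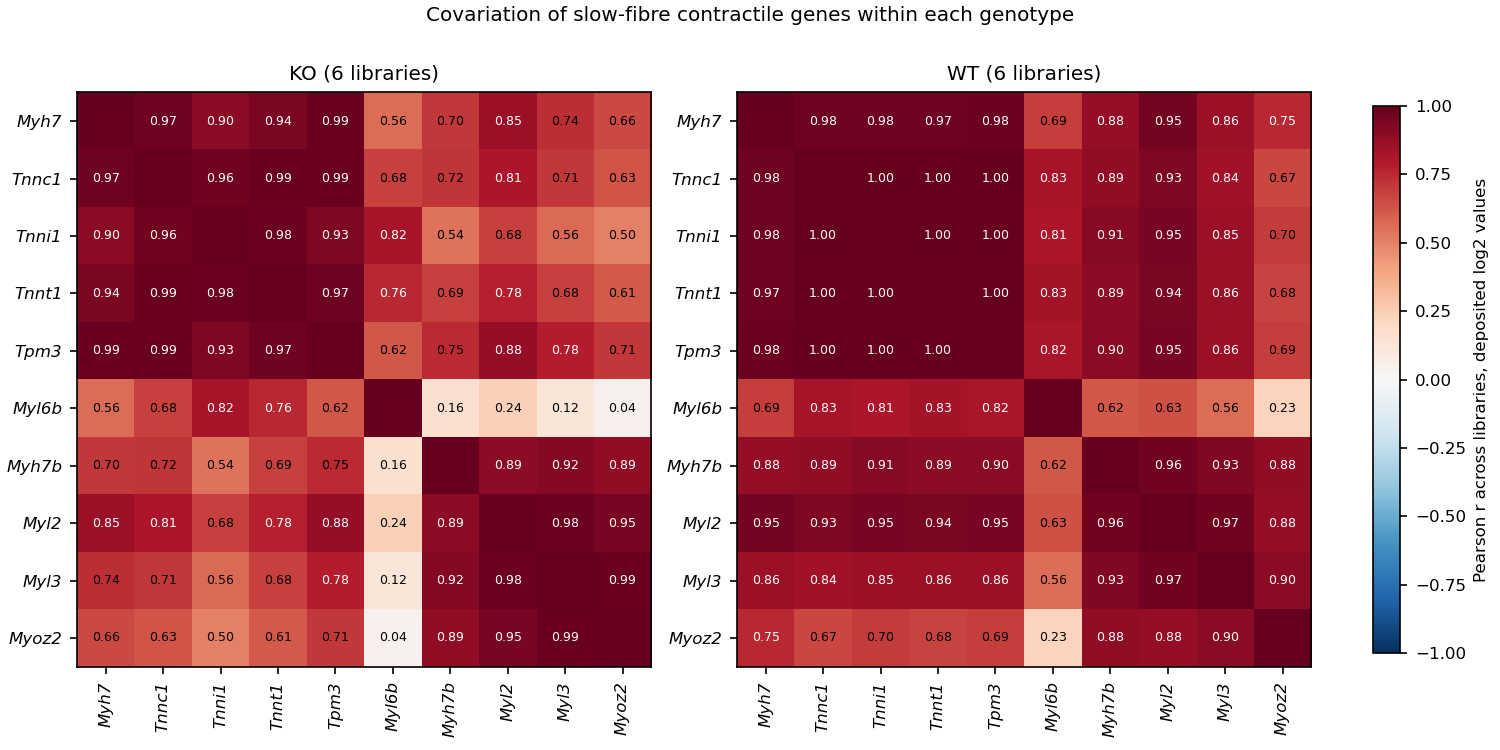
Pearson's r for every pair of slow-fibre genes across 6 KO libraries and across 6 WT libraries, from deposited log2 values; each cell gives r, rounded, and the colour scale runs from -1 to 1. In KO the 45 pairs had a median r of 0.758. They form a block of Myh7, Tnnc1, Tnni1, Tnnt1 and Tpm3 and a block of Myh7b, Myl2, Myl3 and Myoz2. These KO blocks are not sharply apart, since r of Myl2 was 0.879 with Tpm3 and 0.891 with Myh7b. In WT the median was 0.885. There too Myoz2 had lower r with Tnnc1 (0.665) and Tnni1 (0.699) than with Myh7b (0.884) and Myl2 (0.879). Myl2 in WT had similar r with Myh7 (0.954) and Myh7b (0.962).

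In KO libraries Myoz2 and Myl3 lined up with Myh2, the type IIA heavy chain of fast oxidative fibres. This comparison was added after the values had been seen, with p-values adjusted over its own 20 relations. In KO, r with Myh2 was 0.990 for Myoz2 and 0.987 for Myl3 (exact permutation, adjusted p = 0.0139 each; rho = 1 for both, adjusted p = 0.0278), and 0.949 for Myl2 (adjusted p = 0.037), whose rank correlation did not pass (rho = 0.886, adjusted p = 0.222). It was 0.875 for Myh7b (exact permutation, adjusted p = 0.0972) and between 0.443 and 0.687 for Tpm3, Myh7, Tnnc1, Tnnt1 and Tnni1, none of which passed. In WT no gene passed against Myh2 (exact permutation, adjusted p of 0.256 or more), and r ran from -0.43 for Myl6b to 0.761 for Myoz2. Without KO 5 and KO 6, r with Myh2 was 0.974 for Myoz2, 0.920 for Myl3 and 0.664 for Myl2 over the other 4 KO libraries. The relation of Myl2 thus rests in part on KO 5 and KO 6. Myh1, another fast heavy chain, put the KO libraries in the same order as Myh2, Myoz2 and Myl3. From lowest to highest it was KO 5 (Myh1 at 13.28), KO 6, KO 1, KO 2, KO 4 and KO 3 (Myh1 at 15.81). By rank the relation in KO is therefore not particular to Myh2. Correlations with Myh1 were not computed.

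KO 2 and WT 5 had high Myl3 and Myoz2 relative to Tnnc1. Both are among the libraries behind the correlations above, so they illustrate those values and are no further evidence. KO 2 held 20.1 estimated reads of Myh7, 15.7 of Tnnc1 and 11.9 of Tnni1, but 756 of Myl3, 368 of Myoz2 and 263 of Myl2. Per exon length, Myl3 stood at 24.6 times the level of Tnnc1 in KO 2 and between 0.708 and 1.86 times in the other KO libraries. In WT 5 the same ratio was 7.45, against 1.06 to 1.89 in the other WT libraries. Myoz2 stood at 7.14 times Tnnc1 in KO 2 and at 1.35 times in WT 5, which were the highest ratios of their genotypes. Among the troponins the ratio was steadier: Tnnc1 stood at 4.04 to 7.76 times Tnni1 in 5 KO libraries, at 1.36 times in KO 5, and at 5.62 to 7.22 times in the 6 WT libraries. KO 5 differed from KO 2 in another way, with Myh7 at 0 estimated reads and Myl2 at 2, but Tnnt1 at 106 and Tnni1 at 65.6.

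**Figure D3:**
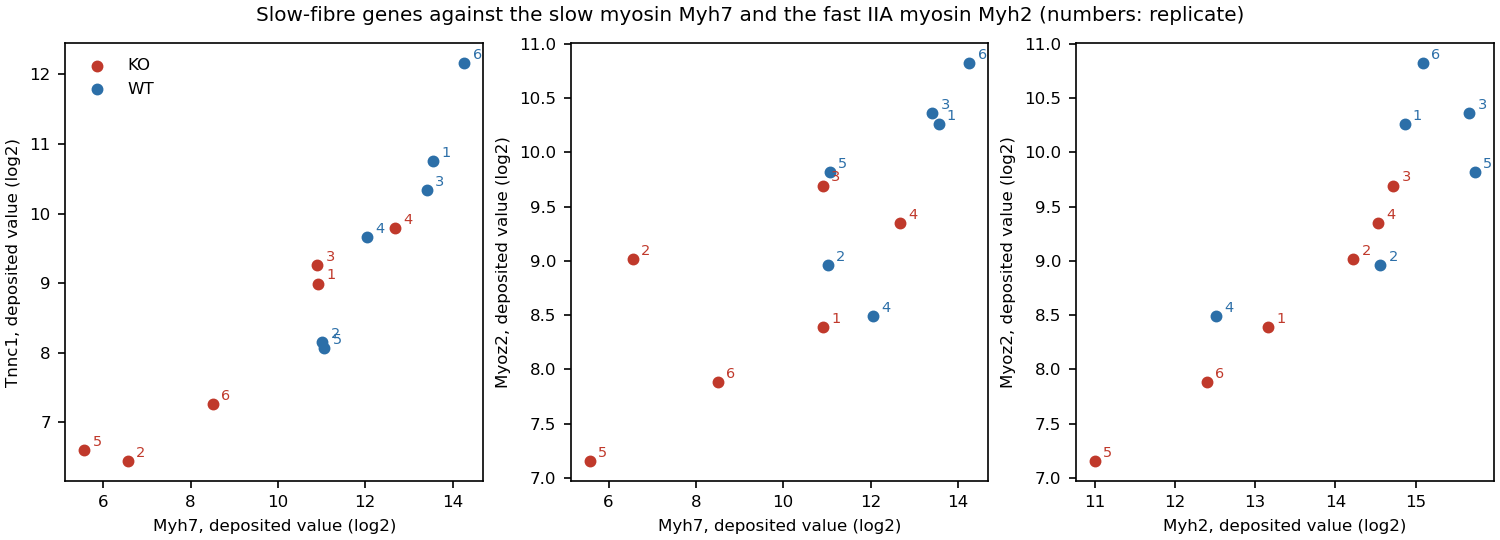
Deposited log2 values by library, with KO in red and WT in blue and replicate numbers beside the points: Tnnc1 against Myh7, Myoz2 against Myh7, and Myoz2 against Myh2. Tnnc1 follows Myh7 in both genotypes (r = 0.974 in KO and 0.976 in WT), and KO 2 lies above the trend of the other KO libraries for Myoz2 against Myh7 but on it for Myoz2 against Myh2 (r = 0.990 in KO).

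Against Myh7, none of the other measures passed. With Myh4, r was -0.59 in KO and -0.64 in WT (exact permutation, adjusted p = 0.278 and 0.226), and without the 2 farthest libraries it was 0.12 in KO and -0.98 in WT. With Ank2, r was 0.316 in KO and 0.095 in WT (exact permutation, adjusted p = 0.562 and 0.832), and without those libraries -0.62 in KO and 0.727 in WT, so both relations turn on a few libraries. With estimated library depth, r was 0.698 in KO and -0.26 in WT (exact permutation, adjusted p = 0.2 and 0.641).

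The fast counterparts of these genes had estimates nearer to 0. Of 13 fast-fibre contractile genes tested, none was called higher and Mylk2 was called lower, against 3.12% and 3.08% of all tested genes, and the list had a median change of -0.02. Mylk2 encodes the kinase that phosphorylates the fast regulatory light chain, and it had deposited values of 13.43 ± 0.26 in KO and 14.02 ± 0.28 in WT (SD, n = 6 each). Its change was -0.59 (SE 0.14, limma adjusted p = 0.0244), and the call was lost without WT 2, WT 3, KO 3 or KO 6 (adjusted p up to 0.0647). Mylpf, the fast regulatory light chain, had 17.23 ± 0.19 in KO and 16.85 ± 0.28 in WT (change 0.38, SE 0.13, limma adjusted p = 0.0894). Mylpf was called higher without WT 4 (change 0.49, adjusted p = 0.0122) and with sample quality weights (change 0.42, adjusted p = 0.0343), and Myl1, the fast essential light chain, was called higher without WT 4 (change 0.32, adjusted p = 0.0405). In the main test, changes of the other counterparts ran from -0.10 for Myh4 to 0.22 for Myl1 and 0.22 for Tnnc2, with limma adjusted p of 0.236 or more. The fast list also holds Myh2 (change -1.40, SE 0.75, limma adjusted p = 0.269) and Myh1 (change -0.38, SE 0.56, limma adjusted p = 0.704), which are not among the paired counterparts. Their spread within groups ranked 11 and 22 among all tested genes. Of the exon bases of Tnnc2, 74% are shared with the neighbour Ube2c.

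**Figure D4:**
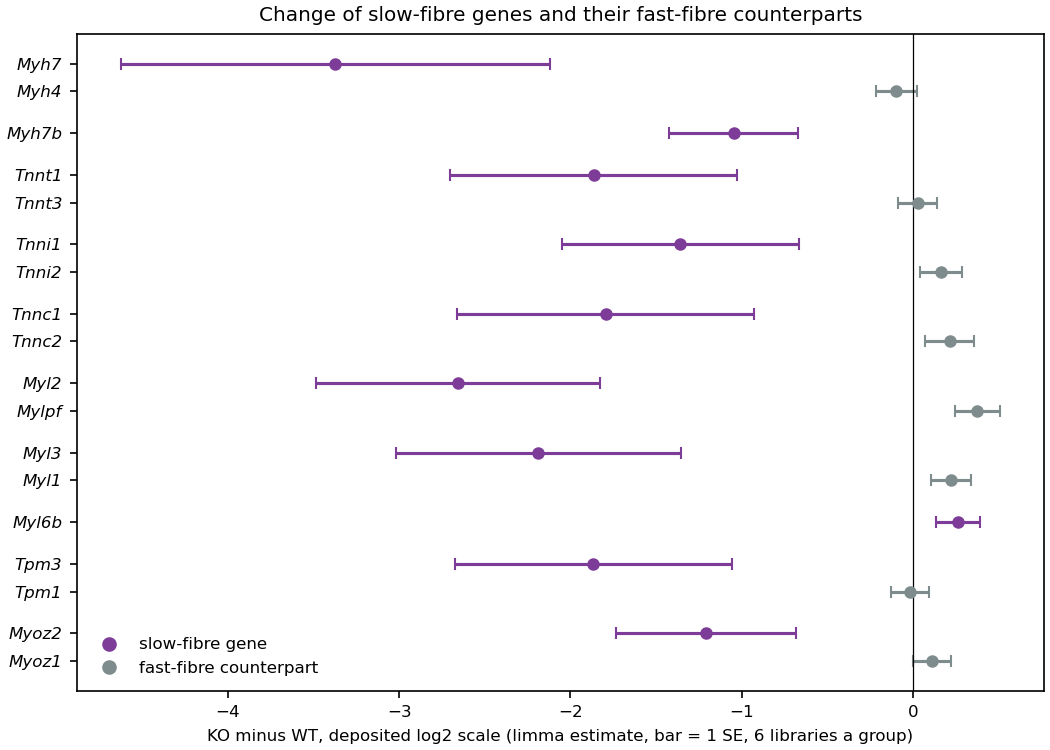
Change between KO and WT (limma estimate on the deposited log2 scale, bar of 1 SE, 6 libraries a group) for the 10 slow-fibre genes and, below each where it has one, its fast counterpart. Estimates of 9 slow-fibre genes lie between -3.37 and -1.05 with wide bars, and the 8 fast counterparts lie between -0.10 and 0.38.

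Expressed as the slow share of each slow and fast pair, from estimated reads per exon length, the transcripts were almost wholly fast in both genotypes. Myh7 made up 0% to 0.294% of the sum of Myh7, Myh2, Myh1 and Myh4 in KO (median 0.0605%) and 0.0809% to 1.06% in WT (median 0.333%). The 0 reads of KO 5 allow a share of up to 0.000132%, which covers counting error only. Myh2 had a median share of 0.850% in KO and 2.01% in WT, and Myh4 a median share of 96.6% in KO and 94.4% in WT. Myh2 itself had deposited values of 13.34 ± 1.45 in KO and 14.74 ± 1.18 in WT (SD, n = 6 each), with a change of -1.40 (SE 0.75, limma adjusted p = 0.269).

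For Myl2 in the sum of Myl2 and Mylpf, the median share was 0.122% in KO and 1.17% in WT, and 5 KO libraries were below every WT library. For Myl3 in the sum of Myl3 and Myl1, it was 0.376% in KO and 2.13% in WT. For Tnni1 in the sum with Tnni2 it was 0.0364% in KO and 0.175% in WT, and for Myoz2 in the sum with Myoz1 it was 0.401% in KO and 1.36% in WT. In all 8 pairs 5 or 6 of the KO libraries had a share below the WT median, and 2 to 5 had a share below every WT library.

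**Figure D5:**
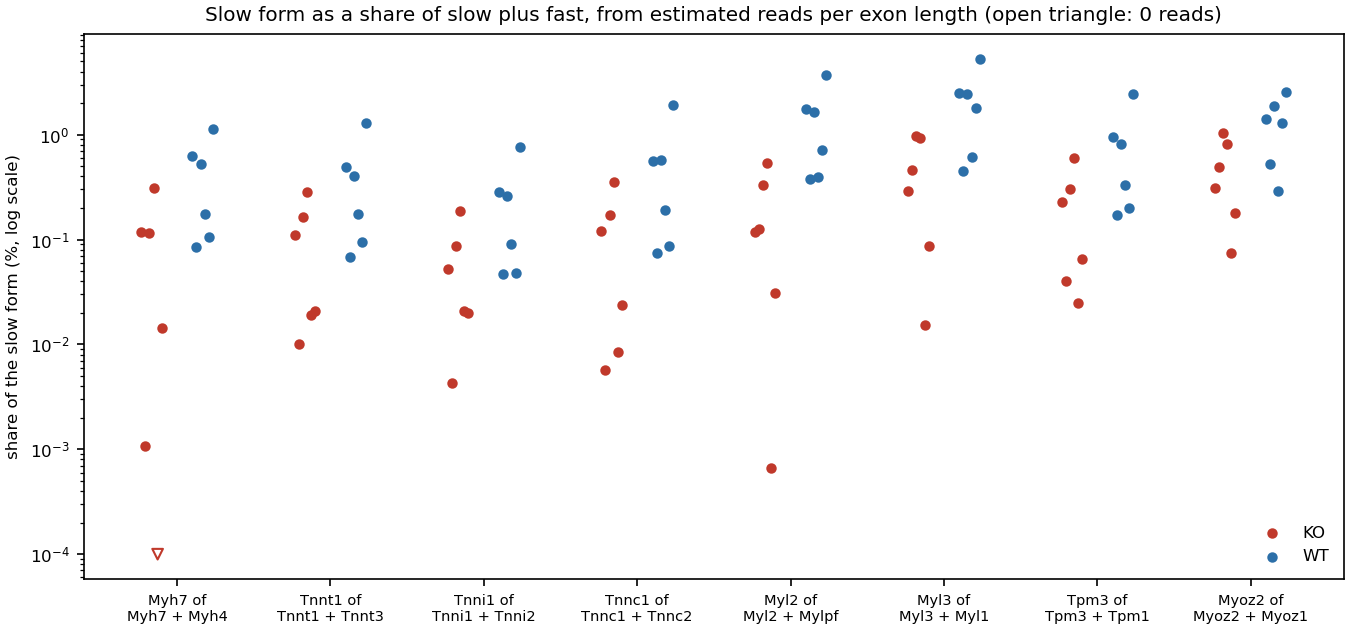
Share of the slow form in the sum of slow and fast form (percent, log scale) for 8 pairs, from estimated reads per exon length, with KO in red left of WT in blue; each point is a library, and the open triangle at the bottom marks the KO library with 0 reads of Myh7. Median shares were lower in KO in every pair, for example 0.122% against 1.17% for Myl2, and the groups overlap in every pair.

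Other genes of slow and oxidative fibres were less uniform. Of 12 tested, none was called, against 6.2% of all tested genes, and 9 had estimates below 0, against 52.4%, with a median change of -0.28. Pln, phospholamban, the inhibitor of the slow calcium pump, had 6.39 ± 0.19 in KO and 6.71 ± 0.15 in WT (SD, n = 6 each; change -0.32, SE 0.09, limma adjusted p = 0.0506). Atp2a2, the slow calcium pump SERCA2, had 10.59 ± 0.69 in KO and 11.88 ± 0.95 in WT (change -1.29, SE 0.47, limma adjusted p = 0.119). Csrp3, the muscle LIM protein of the Z-disc, had an estimate of -1.46 (SE 0.60, limma adjusted p = 0.162) and Ldhb, the oxidative lactate dehydrogenase subunit, of -1.02 (SE 0.58, limma adjusted p = 0.296). The 3 genes with estimates above 0 were Tpm2 (0.21), Cryab (0.18) and Casq2 (0.13), with limma adjusted p of 0.37 or more. Mybpc1 (-0.24), Fabp3 (-0.16) and Actn2 (-0.14) had smaller estimates below 0.

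Among 26 regulators of fibre type, 25 were tested, none was called higher and 2 were called lower, against 3.08% of all tested genes. Nfatc1, the calcineurin-dependent factor that favours the slow programme, had 9.32 ± 0.20 in KO and 9.65 ± 0.12 in WT (SD, n = 6 each; change -0.33, SE 0.09, limma adjusted p = 0.0395). Eya1, a transcription cofactor of the fast programme, had 8.77 ± 0.27 in KO and 9.14 ± 0.07 in WT (change -0.37, SE 0.10, limma adjusted p = 0.0445). Both calls were lost when single libraries were left out, Nfatc1 in 8 of the 12 fits (all but those without WT 1, KO 2, KO 4 or KO 5) and Eya1 in 9 (all but those without KO 2, KO 4 or KO 5). Over the 25 genes 23 had estimates below 0, against 52.4% of all tested genes, with a median of -0.22. They include Sox6, a repressor of slow-fibre genes (-0.41, SE 0.13, limma adjusted p = 0.0722), and the slow-fibre factor Esrrg (-0.75, SE 0.23, limma adjusted p = 0.0722).

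Cardiac and developmental sarcomere genes, some of which belong to the same families, had mostly higher estimates in KO. Of 9 listed genes 7 were tested, 3 were called higher and none lower, against 3.12% and 3.08% of all tested genes. Tnnt2, cardiac troponin T, had 8.97 ± 1.07 in KO and 6.98 ± 0.24 in WT (SD, n = 6 each; change 1.99, SE 0.44, limma adjusted p = 0.032). Actc1, cardiac alpha-actin, had 13.60 ± 1.23 in KO and 11.07 ± 0.95 in WT (change 2.53, SE 0.63, limma adjusted p = 0.0437), and Myh8, the perinatal heavy chain, had 7.81 ± 0.72 in KO and 6.62 ± 0.27 in WT (change 1.18, SE 0.30, limma adjusted p = 0.0415). These calls were lost in 8 (Tnnt2), 10 (Actc1) and 11 (Myh8) of the 12 fits that each left out a library, with adjusted p up to 0.103, and held without KO 2 in all 3 genes. None of 9 sarcomere genes shared by all fibres was called, with a median change of -0.06.

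The summed level of markers of other cell types was lower in KO in 4 of 9 lists, by p-values that were not adjusted over the lists. The summed scaled reads of satellite cell markers ran from 383 to 482 in KO and from 460 to 553 in WT (exact permutation p = 0.00649), and those of smooth muscle markers from 938 to 1077 in KO and from 1011 to 1927 in WT (exact permutation p = 0.0108). Adipocyte markers summed to 30.8 to 122 in KO and 55.0 to 231 in WT (exact permutation p = 0.0238), and endothelial markers to 3306 to 5027 in KO and 3981 to 5458 in WT (exact permutation p = 0.0476). In each of these lists limma called 1 gene lower in KO: 1 of 4 satellite cell markers (Cdh15), 1 of 4 smooth muscle markers (Myh11), 1 of 3 tested adipocyte markers (Adipoq) and 1 of 7 endothelial markers (Flt1), against 3.08% of all tested genes. With single libraries left out, Cdh15 was called in 6 of the 12 fits, Myh11 in 4, Adipoq in 5 and Flt1 in 6. The lists were not uniform: the other satellite cell markers had estimates of 0.06 (Pax7), 0.13 (Chodl) and -0.002 (Myf5), and endothelial Cldn5 had 0.29, with limma adjusted p of 0.162 or more. Cdh15 had the highest deposited values of the satellite cell markers (WT mean 8.88, against 6.56 to 7.32 for the others), so their sum mostly follows Cdh15. All 4 smooth muscle and all 3 tested adipocyte markers had estimates below 0, but so did all 6 Schwann cell and all 5 erythroid markers. None of the other lists (fibroblast, tendon, Schwann cell, macrophage, erythroid) had a called gene, and their sums had exact permutation p of 0.314 or more. Of the 5 adipocyte markers, 2 stood at the lowest value in at least 1 library. The part of these cells in the slow-fibre values was not tested.

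With gene models that lack a proper name (such as Gm and Rik symbols) left out, the genes whose values across the 12 libraries were most like the mean of the slow-fibre set, after removal of each group's mean, were Srgn (r = 0.923), Fbrsl1 (0.912), Slc38a3 (0.90), Mrps30 (0.890), Adam1a (0.886), Myl12a (0.881), Atp2a2 (0.869), Ddit3 (0.862), Cep63 (0.862) and Hspb6 (0.861). These genes were picked as the highest of all tested genes so ranked, and how high r would reach by chance was not tested. None of these 10 was called between KO and WT, against 6.2% of all tested genes. Their limma adjusted p ran from 0.119 to 0.996. Of the list, Atp2a2 is a known slow-fibre gene, and its KO values ran from 9.90 to 11.77 against 10.83 to 12.87 in WT.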

How the data were processed

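The authors deposited 1 table of log2 values, 1 column for each of 12 libraries, for 24528 gene symbols. Per the submitters' processing notes, fastp, STAR and featureCounts were used with build mm10, without versions; the sources used here give neither the normalization nor the transformation. The table has the shape of a variance-stabilizing transformation, and 6474 genes stand at its lowest value in every library. Inverting that shape gave scaled reads, and 1 read was set, for each library, to the median of its inverted values that lay close to 1. Of values under 20 reads, 86.35% to 91.96% per library then lay within 0.1 of a whole number. These estimated reads served the filter, depths, percentages and shares, not the main test.

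The filter asked for 10 or more estimated reads in 6 or more libraries. The test was limma 3.58.1 under R 4.3.3, applied to the log2 table as deposited, with genotype as its term, a variance trend and robust moderation. Adjusted p-values are two-sided, by the Benjamini-Hochberg method over all 12218 tested genes, and 0.05 was the threshold. A change is the KO mean minus the WT mean. Single values were compared by exact two-sided permutation over 924 assignments (the smallest possible p is 0.00216), and correlations by exact permutation over 720 pairings (the smallest is 0.00139). Lists are described by counts and medians, except that the summed marker levels were also compared by exact permutation of their log2 values. Such a sum is weighted to its most abundant genes.

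The design assumed counts or normalized values; the values were already logarithmic, so no pseudocount was used in the main test. The slow-fibre genes and the lists were chosen with earlier results of these data known. Named genes were the 10 slow-fibre genes, Ank2, the fast counterparts and the 10 most similar genes, gene models left out. Of each other list, the called genes and some others were named, not strictly by smallest p. Ankrd2 (change -1.12, limma adjusted p = 0.261) and Hdac5 (change -0.22, limma adjusted p = 0.058) were passed over. Positions, overlaps and exon lengths come from GENCODE M21 on mm10, and promoter sequences from RefSeq on GRCm38.p6. An exon length joins the exons of all annotated transcripts of a gene (3600 bases for Tnni1 and 1041 for Tnnc1). The ratios and shares between genes depend on these lengths, which can exceed that of the transcript present in muscle. On simulated data for KO against WT, 81% of 100 genes changed by 0.5 and 99% of 100 changed by 1 were recovered, with 12 false calls among 12218 genes. The changed genes were drawn at random from all tested genes. These rates therefore do not apply to the slow-fibre genes other than Myl6b, whose spread within groups is among the largest. Replicate numbers are shared by KO and WT, and the main test did not treat them as pairs. Intervals and floors cover counting error only, the floor being 3 reads.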

Additional observations from a re-analysis of the deposited data

Results flagged for a closer look

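In 38 groups of 6 libraries (the KO and WT values of the genes named above from the slow, fast and target lists), 2 values stood apart from the rest of their group by Dixon's criterion. Chance flags about 1 in 20 groups. Tnnc2, fast troponin C, was lowest in KO 4, at a deposited log2 value of 17.38, with the nearest KO library at 17.83. KO 4 is also the KO library with the most Tnnc1. Mylpf, the fast regulatory light chain, was highest in WT 4, at 17.41, with the nearest WT library at 16.90. None of the 10 slow-fibre genes had a value that stood apart in this way.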

How the results depend on the processing

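The slow-fibre set kept 9 of 10 estimates below 0 in all 23 alternatives, and the median change of the 10 genes ran from -2.18 to -1.38 when single libraries were left out. No slow-fibre gene was called in the 12 fits that each left out a library. In the other alternatives, 1 was called without robust moderation (Myl2) and none in the rest. The number of called genes over the whole table was 757 in the main test, 1174 with sample quality weights, and between 194 (without KO 6) and 1514 (without KO 2) with single libraries left out; the cause was not tested. Ank2 was called in every alternative, with changes from -1.56 to -0.98.

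Reversed estimates were small and uncalled, and the cause was not tested. Tpm1 was 0.0147 with sample weights, 0.0335 with a gene length correction added after the data were seen, and -0.0672 to 0.0661 with single libraries left out (above 0 without WT 1, WT 4 or KO 4). Tnnt3 was -0.0423 with that correction and -0.0238 to 0.108 with single libraries left out (below 0 without WT 3 or WT 5). Correlations that changed sign were Myh7 with Myh4 in KO (0.12) and with Ank2 in KO (-0.62) without the 2 farthest libraries, Myh7 with Ank2 in WT by rank (-0.0857), Tnni1, Tnnc1 and Tpm3 with Myh2 in WT by rank (-0.0857 each) and Myl6b with Myh2 in WT without the 2 farthest libraries (0.176).

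With the replicate number as a block, 813 genes and no slow-fibre gene were called. Libraries with the same number did not consistently deviate together (r from -0.36 to 0.29 over 6 pairs, 2 of 6 over 0.1). Of the 6 KO libraries, 2 matched their own number best (KO 1 and KO 2). So few pairs cannot settle whether the samples were paired. Depth limits the lowest values: Myh7 in KO 5 was at 0 reads, and Myl2 and Myh7b there at 2.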
